A study of Mus musculus with 15 samples.

Results

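The contactins and the contactin-associated proteins are cell-surface adhesion molecules of the axon and the synapse. They were followed here through the postnatal maturation of G42 interneurons, the fast-spiking, parvalbumin-class inhibitory neurons of the mouse neocortex that are marked with GFP in the G42 line. The members were Cntn1, Cntn2, Cntn3, Cntn4, Cntn5, Cntn6, Cntnap1, Cntnap2 and Cntnap4, and every probe set annotated to 1 of these symbols and to no other gene was taken. They are 9 of the 18193 genes that had a probe set of their own, and they held 18 of 34945 such probe sets. A value counted as signal above 5 on the log2 scale, and a gene was tested if its brightest probe set exceeded 5 on at least 3 of the 15 arrays. By that filter 8 of the 9 members were tested, Cntnap1 being the exception, and of the 18 probe sets 11 were tested.

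Contactins are immunoglobulin-domain proteins held in the membrane by a lipid anchor, and contactin-associated proteins, also called Casprs, are transmembrane relatives of the neurexins that pair with them on the axon. In myelinated axons contactin 1 and Caspr, the products of Cntn1 and Cntnap1, build the axonal side of the paranodal junction with the myelin loops. Contactin 2 and Caspr2, from Cntn2 and Cntnap2, lie in the neighbouring juxtaparanode and hold Kv1 potassium channels there. Contactins 3 to 6 act in axon growth, in the choice of synaptic partners and in dendrite orientation, and bind receptor tyrosine phosphatases. Caspr4, from Cntnap4, is known from the synapses of interneurons and from sensory axons. Axons of parvalbumin interneurons are the commonest myelinated inhibitory axons of the cortex.

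RNA came from GFP-positive neurons of the primary somatosensory cortex of G42 transgenic mice, in which GFP is driven by the promoter of Gad1, a GABA-synthesis enzyme, and marks part of the parvalbumin class. The 5 groups were defined by age, with 3 animals and 3 arrays each: postnatal day (P) 7, P10, P15, P25, and a group labelled P40 that ran to day 45. All groups carried the same transgene and had the same protease digestion for 1 h, hand picking under fluorescence and 2 rounds of RNA amplification, so no array came from untreated tissue. Between 23 and 85 cells were pooled per animal, and the number differed by age, with 52 to 85 at P7 and 23 to 45 at P15. The values are the authors' log2 expression values from Affymetrix mouse expression arrays.

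The arrays were checked first. Pvalb, which encodes parvalbumin, read 3.62 ± 0.72 (SD, n = 3) at P7 and 14.28 ± 0.20 at P40, while Slc17a7, whose product loads glutamate into vesicles of excitatory neurons, did not exceed 2.62 on any array. Sst, the peptide of another interneuron class, exceeded 5 on 14 of the 15 arrays, on which it read 9.20 to 13.04. On P40 replicate 1 it read 1.72. Of the other genes listed for other interneuron classes, Npy, Cck and Reln exceeded 5 on all 15 arrays. Their age means ran from 10.92 to 12.71 for Npy, 8.41 to 12.29 for Cck and 9.35 to 12.04 for Reln. Calb2 and Lamp5 exceeded 5 on 1 array each, and Vip and Htr3a on none. Of the other listed markers of G42 interneurons, Gad1, Gad2, Slc32a1, Kcnc1, Syt2 and Lhx6 exceeded 5 on all 15 arrays and Erbb4 on 1. Replicates 2 and 3 of P15 stood apart: their hybridization spikes read 2.45 and 2.43, against 9.18 or more on the other 13 arrays, so a gene's difference that uses P15 is also given without them where its call or its size changed. The 3 arrays of P25 were the only ones on which Mobp, a myelin protein gene of oligodendrocytes, exceeded 5. The difference between the 3′ and 5′ beta-actin probe sets, a measure of how complete the amplified RNA was, was 5.77 ± 0.98 at P7 and 3.93 ± 0.55 at P40. No 2 arrays held identical values. Across the genes tested, arrays of 1 age correlated at 0.921 to 0.976 and arrays of different ages at 0.764 to 0.967. The labels name the 3 arrays of an age as biological replicates, which are taken here as separate animals. Each array pools many cells, so a change in the share of cells that carry a transcript and a change in RNA per cell cannot be told apart in any result that follows.

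Promoters are printed for 4 of the members whose RNA differed between ages, because Cntn5 and Cntn6 fell together over the whole period, Cntn2 rose, and Cntn4 lies next to Cntn6 on chromosome 6 but followed another course. The windows are RefSeq's, on build GRCm38.p6, 250 bases before to 50 after a transcription start, 5′ to 3′ on the gene's strand. Capitals mark every match, on either strand, of the 7 motifs searched: the TATA box TATAAA, the CCAAT box, the GC box GGGCGG, an E-box form CACGTG and another such form CAGCTG, the homeodomain core TAATTA and the cyclic AMP element TGACGTCA. The window of Cntn2 is chr1:132542891-132543190 on the minus strand, that of Cntn6 is chr6:104492794-104493093 on the plus strand, that of Cntn4 is chr6:106118692-106118991 on the plus strand, the downstream of 2 starts, and that of Cntn5 is chr9:10904677-10904976 on the minus strand, also 1 of 2 starts.
Cntn2: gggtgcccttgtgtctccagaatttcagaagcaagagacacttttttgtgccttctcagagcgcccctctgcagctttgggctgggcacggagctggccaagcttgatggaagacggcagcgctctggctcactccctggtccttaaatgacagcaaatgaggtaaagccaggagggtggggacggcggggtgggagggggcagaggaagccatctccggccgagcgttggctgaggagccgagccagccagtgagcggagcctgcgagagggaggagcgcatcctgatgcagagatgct
Cntn6: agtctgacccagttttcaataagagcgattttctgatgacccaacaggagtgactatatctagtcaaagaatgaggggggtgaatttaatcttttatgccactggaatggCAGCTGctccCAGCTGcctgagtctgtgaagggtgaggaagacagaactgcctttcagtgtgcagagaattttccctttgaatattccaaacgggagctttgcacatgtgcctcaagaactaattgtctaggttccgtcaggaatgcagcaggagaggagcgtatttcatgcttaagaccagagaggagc
Cntn4: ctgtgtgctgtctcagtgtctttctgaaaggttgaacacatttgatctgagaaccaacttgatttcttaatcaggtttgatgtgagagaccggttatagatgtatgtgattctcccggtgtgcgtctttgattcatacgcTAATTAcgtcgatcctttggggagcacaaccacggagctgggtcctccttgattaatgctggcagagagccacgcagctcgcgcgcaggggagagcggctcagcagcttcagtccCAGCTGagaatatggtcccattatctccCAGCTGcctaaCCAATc
Cntn5: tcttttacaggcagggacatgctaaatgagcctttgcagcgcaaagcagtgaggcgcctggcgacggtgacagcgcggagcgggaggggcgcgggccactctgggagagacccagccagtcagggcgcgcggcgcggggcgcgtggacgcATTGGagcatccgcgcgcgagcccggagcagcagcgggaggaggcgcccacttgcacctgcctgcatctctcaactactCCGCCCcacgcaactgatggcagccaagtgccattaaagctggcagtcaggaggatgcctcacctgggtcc

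The 4 windows share no motif that all of them hold. The Cntn6 window holds CAGCTG 2 times, and so does the Cntn4 window, whereas 16.3% of all 32851 windows hold it at least once. The Cntn4 window also holds TAATTA, found in 5.29% of windows, and CCAAT, found in 37.4%. In the Cntn5 window CCAAT and GGGCGG, the latter found in 35.7% of windows, occur on the opposite strand and so read ATTGG for the former and CCGCCC for the latter. The Cntn2 window holds none of the 7 motifs. Of the other motifs, TATAAA occurs in 13.6% of windows, CACGTG in 7.15% and TGACGTCA in 1.79%. The Cntn5 window is rich in CpG, with 26 such dinucleotides and a GC content of 66.7%, against a median over all windows of 7 and 52.7%. The Cntn6 window has 4 CpG and the Cntn4 window 12, and the Cntn2 window has 13. Windows were found for 7 of the 9 members, Cntnap1 and Cntnap4 being those without. These matches are letters in a window, not sites of binding.

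Between P7 and P40, 2 members rose, Cntn2 and Cntnap4, and 2 fell, Cntn5 and Cntn6. The other 4 tested members, Cntn1, Cntn3, Cntn4 and Cntnap2, were not called. A call is an adjusted p under 0.05 in limma, with Benjamini-Hochberg adjustment over all 9663 genes tested. The 4 of 8 members called stand beside a background of 45.2% of all genes tested, so the share of members that changed was near that of genes in general. By direction the background was 27.5% higher and 17.6% lower at P40. The median of the members was -0.00 on the log2 scale, against 0.18 over all genes. The arrays of P7 and P40 did not overlap for 4 of 8 members, against 55.7% of all genes. Any difference between the 5 ages was called by the moderated F test for 6 of 8 members, against 47.2% of all genes. The 2 members without such a call were Cntn3, with an adjusted p of 0.063, and Cntnap2, with 0.36.

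**Figure D1:**
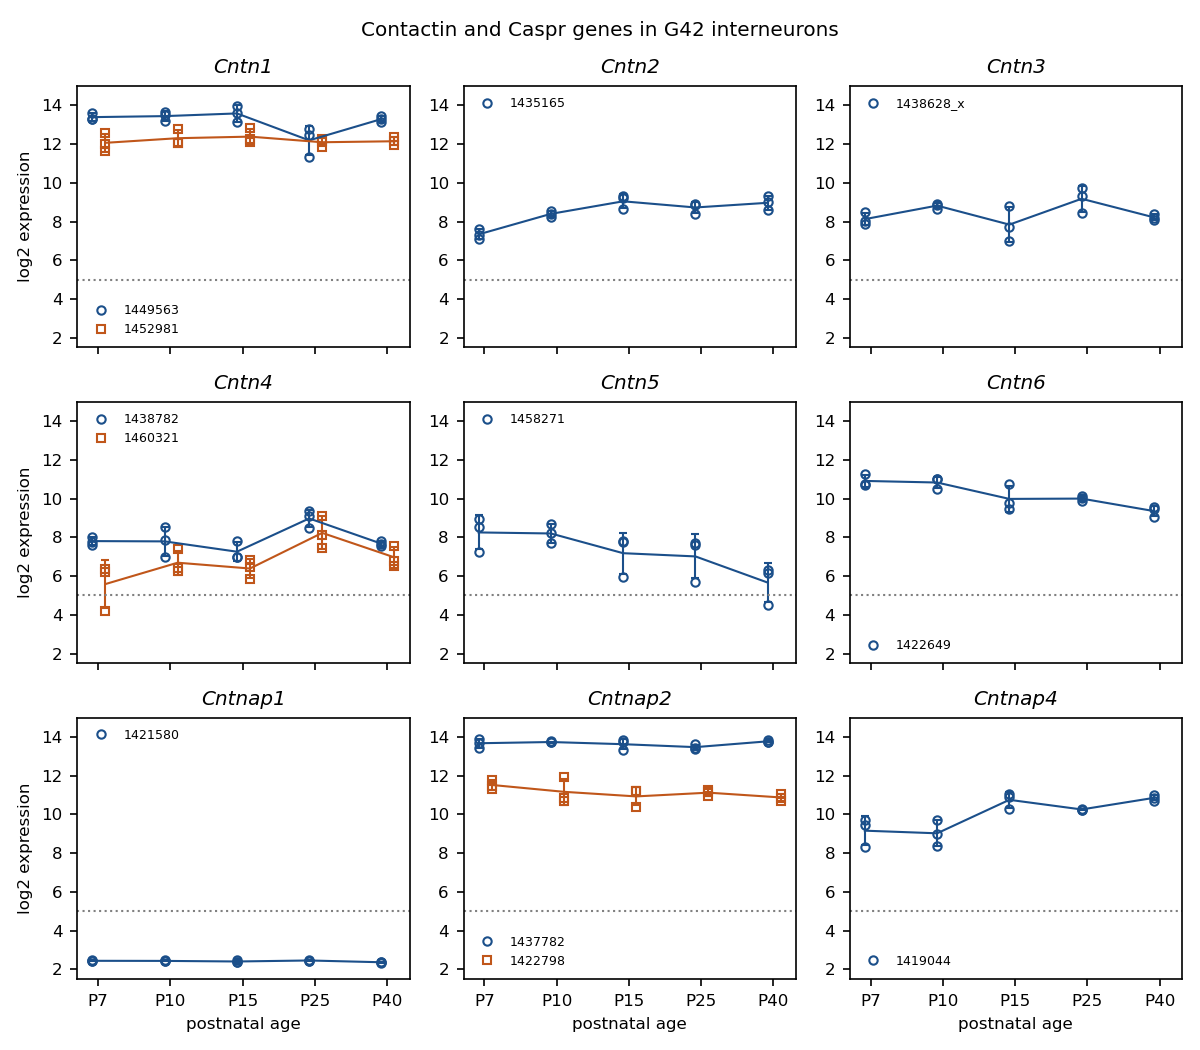
Log2 expression (vertical axis) of the 9 contactin and Caspr genes at the 5 postnatal ages (horizontal axis), 1 symbol per array, with lines through the means of 3 arrays and bars of 1 SD; squares show a further tested probe set of the same gene, and the dotted line is the signal limit of 5. Cntn2 and Cntnap4 climb, Cntn5 and Cntn6 decline, Cntn4 peaks at P25, Cntnap2 stays near 13.5 and Cntnap1 lies at 2.35 to 2.49 throughout.

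**Figure D2:**
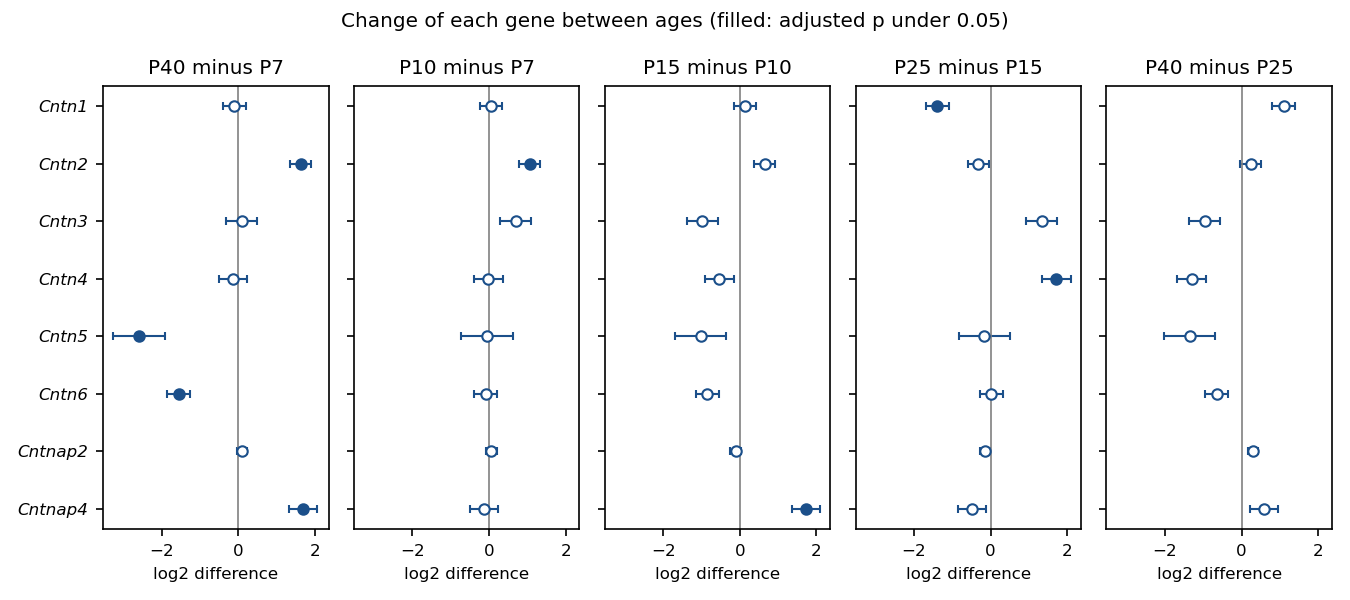
Log2 differences (horizontal axis) of the 8 tested members for P40 minus P7 and for the 4 steps between neighbouring ages, with bars of 1 standard error; filled symbols have an adjusted p under 0.05 in limma. The filled symbols are Cntn2, Cntn5, Cntn6 and Cntnap4 for P40 minus P7, Cntn2 for P10 minus P7, Cntnap4 for P15 minus P10, and Cntn1 and Cntn4 for P25 minus P15.

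Cntn1, the axonal contactin of the paranode, was at a high level at every age, and its reading at P25 depended on the probe set. Probe set 1449563_at read 13.28, 13.63 and 13.28 at P7, 13.18, 13.50 and 13.65 at P10, and 13.15, 13.62 and 13.99 at P15. It then read 12.47, 11.35 and 12.76 at P25, and 13.27, 13.47 and 13.14 at P40. The 3 arrays of P25 lay below all 12 others, and the lowest was replicate 2. P25 was 1.39 lower than P15 on the log2 scale (SE 0.29), a 2.62-fold difference with a limma adjusted p of 0.015, and 1.20 lower than P7, with an adjusted p of 0.0044 against a background of 41.7% of genes called. P40 and P7 differed by -0.10, with a 95% interval from -0.72 to 0.53.

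A second Cntn1 probe set, 1452981_at, did not show the P25 value. It read between 11.63 and 12.56 at P7, 12.08, 12.06 and 12.77 at P10 and 12.10, 12.24 and 12.82 at P15. At P25 it read 12.27, 12.16 and 11.86, and at P40 12.15, 12.36 and 11.94. Its arrays overlapped between every pair of neighbouring ages. In the limma fit over all probe sets, P25 minus P15 was -0.29 with an adjusted p of 0.64 for this probe set and -1.39 with 0.018 for the first, a step in which 4.24% of all probe sets were called. The remaining probe set of Cntn1, 1459197_at, stayed between 2.99 and 3.20.

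The P25 values of Cntn1 moved with another transcript. Actb, which encodes beta-actin, read 12.18, 9.95 and 12.32 on the 3 arrays of P25 and 12.88 to 14.14 on all others, so P25 replicate 2 was the lowest array for both genes. Its correlation with Cntn1 over the 15 arrays was 0.89. Actb's part in the Cntn1 result was not tested. Without P15 replicates 2 and 3 the step from P15 to P25 became -0.96, with a limma adjusted p of 0.38, and without those and P25 replicate 2 it became -0.53. Leaving out P15 replicate 2 or 3 alone ended the call as well, with adjusted p of 0.053 and 0.078.

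Cntnap1, which encodes Caspr, the partner of contactin 1 at the paranode, was at background on every array. Its only probe set, 1421580_at, ran from 2.35 to 2.49 over the 15 arrays. It was not tested, and values this low have no order between ages. A single silent probe set gives a value under the signal limit and does not show that the transcript was absent.

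Cntn2, the contactin of the juxtaparanode, was lower at P7 than at every later age. Probe set 1435165_at read 7.29, 7.11 and 7.61 at P7 and 8.41, 8.54 and 8.24 at P10. It read 8.64, 9.20 and 9.30 at P15, 8.40, 8.92 and 8.87 at P25, and 9.31, 8.59 and 9.01 at P40. All 12 arrays from P10 onward lay above the 3 arrays of P7. The P10 arrays also lay below those of P15 and P40, but not below those of P25.

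P40 exceeded P7 by 1.63 on the log2 scale (SE 0.28), with a limma adjusted p of 0.00029, and this stayed between 1.46 and 1.82 with each array left out in turn. The first step, P7 to P10, was 1.06, a 2.08-fold rise with an adjusted p of 0.049, the only member called among 8, against a background of 3.6%. That call was at the edge: it was lost in 12 of the 15 fits that left out 1 array. The step from P10 to P15 was 0.65, with an adjusted p of 0.13, and 0.24 without P15 replicates 2 and 3. The other Cntn2 probe sets, 1435166_at, 1456962_at and 1450523_at, never exceeded 5, their highest values being 4.14, 4.58 and 2.04.

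Cntnap2, which encodes Caspr2, the juxtaparanodal partner of contactin 2 that binds the Kv1 complex, had the smallest range of age means among the tested members by its brightest probe set. Probe set 1437782_at read 13.44, 13.67 and 13.91 at P7, 13.73, 13.77 and 13.72 at P10, and 13.34, 13.82 and 13.72 at P15. It read 13.62, 13.38 and 13.43 at P25 and 13.75, 13.74 and 13.82 at P40. The P40 arrays lay above those of P25 and within the range of P7. P40 minus P7 was 0.10, with a 95% interval from -0.20 to 0.40 and a limma adjusted p of 0.59.

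The second Cntnap2 probe set had another sign. Probe set 1422798_at read 11.79, 11.45 and 11.33 at P7 and 10.85, 11.06 and 10.72 at P40, and these arrays did not overlap. Its range over the intermediate ages was 10.39 to 11.94. Its P40 minus P7 difference was -0.65, with an adjusted p of 0.10 in the limma fit over all probe sets, which called 41.9% of 15381 probe sets for this contrast and 4 of the 11 tested here. The remaining Cntnap2 probe set, 1450758_at, stayed between 2.82 and 3.93.

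Cntn3, a contactin of forebrain neurons, was not called in any contrast between ages. Probe set 1438628_x_at read 8.49, 8.04 and 7.86 at P7, 8.67, 8.88 and 8.92 at P10, and 8.81, 7.01 and 7.71 at P15. It read 9.75, 9.34 and 8.44 at P25 and 8.39, 8.19 and 8.07 at P40. The highest values were the first 2 arrays of P25 and the lowest were replicates 2 and 3 of P15. The P25 arrays lay above those of P40 and overlapped those of P7, P10 and P15.

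P25 minus P15 was 1.33 for Cntn3, with a limma adjusted p of 0.076, but 0.37 without P15 replicates 2 and 3. P25 minus P7 was 1.05, with 0.052, and P40 minus P7 was 0.09, with a 95% interval from -0.78 to 0.97. The suffix of this probe set marks probes that can bind other transcripts. The second probe set, 1420739_at, exceeded 5 on 2 arrays, P25 replicates 1 and 2, at 5.50 and 5.20, and was not tested. It lay between 3.77 and 4.77 on the other arrays. So the same 2 arrays were the highest for both Cntn3 probe sets.

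Cntn4, a contactin known from axon targeting in the visual and olfactory systems and as a binding partner of the amyloid precursor protein, peaked at P25. Probe set 1438782_at read 8.03, 7.63 and 7.77 at P7, 6.99, 7.87 and 8.52 at P10, and 7.82, 6.98 and 6.98 at P15. It read 9.35, 9.11 and 8.47 at P25 and 7.83, 7.66 and 7.53 at P40. The P25 arrays lay above all arrays of P7, P15 and P40, and P25 replicate 3 lay just under P10 replicate 3. P25 exceeded P15 by 1.72 on the log2 scale (SE 0.38), a 3.29-fold difference with a limma adjusted p of 0.019, and exceeded P7 by 1.17, with 0.022. The fall from P25 to P40 was 1.30 on the log2 scale with an adjusted p of 0.14.

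The second Cntn4 probe set gave the same order at P25. Probe set 1460321_at read 6.36, 4.18 and 6.23 at P7, 6.44, 6.25 and 7.39 at P10 and 6.84, 5.87 and 6.47 at P15. It read 9.12, 7.44 and 8.13 at P25 and 6.79, 7.57 and 6.55 at P40. The P25 arrays again lay above those of P15 and P7, while P40 replicate 2 overlapped them. Here the arrays of P7 and P40 did not overlap, P40 being higher by 1.38 with an adjusted p of 0.071, whereas 1438782_at differed by -0.13 between those ages. P25 minus P15 was 1.84 (SE 0.58), with an adjusted p of 0.093 in the limma fit over all probe sets, and any age was called, with 0.020, as for 44.6% of all probe sets.

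Cntn1 and Cntn4 were the members called between P15 and P25, 2 of 8 against a background of 4.86%. The size of the Cntn4 difference stayed between 1.53 and 2.00 with each array left out in turn, but its call did not always hold. Leaving out P15 replicate 2, P15 replicate 3, P25 replicate 1 or P25 replicate 2 alone gave 1.58, 1.57, 1.53 and 1.65, with limma adjusted p of 0.079, 0.083, 0.072 and 0.075. Without P15 replicates 2 and 3 together it was 1.15, with 0.43.

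Some glial transcripts were high on the same arrays as Cntn4 and others were not. Mobp read 7.71, 8.37 and 6.34 on the 3 arrays of P25 and at most 3.58 elsewhere. Mbp, the myelin basic protein gene, read 11.58, 11.56 and 10.48 at P25 and 5.09 to 8.93 elsewhere. Of the oligodendrocyte list 11 of 12 genes were on the array, and 4 exceeded 5 at P25. Its summed level, as log2, ran from 11.14 to 12.27 at P25, 10.78 to 11.11 at P7, 9.76 to 10.63 at P10, 9.90 to 10.11 at P15 and 9.78 to 10.05 at P40. The other expressed genes of that list had other courses: Cnp, a myelin enzyme gene, was highest at P7, at 10.75 ± 0.23 (SD, n = 3) against 9.79 ± 0.67 at P25, and Ugt8a, of myelin lipid synthesis, read 6.35 ± 1.78 at P25 and 7.17 ± 1.44 at P40. Mog, Mag, Cldn11, Opalin, Mal, Ermn and Aspa, which also mark oligodendrocytes, never exceeded 5. Gja1, an astrocyte gap junction gene, exceeded 5 on P25 replicate 2, at 9.65, and on P10 replicates 2 and 3, at 8.55 and 9.02. The astrocyte glutamate transporter gene Slc1a2 read 8.44 ± 0.13 at P10, 6.86 ± 0.45 at P25 and at most 4.85 on average at the other ages. The summed astrocyte list, 8 of 8 genes, ran from 8.12 to 10.27 at P25, 8.55 to 10.01 at P10, 6.23 to 7.70 at P7, 6.12 to 7.12 at P15 and up to 8.43 at P40, as log2. Gfap never exceeded 5. The part of these transcripts in the Cntn4, Cntn3 and Cntn1 values at P25 was not tested.

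**Figure D3:**
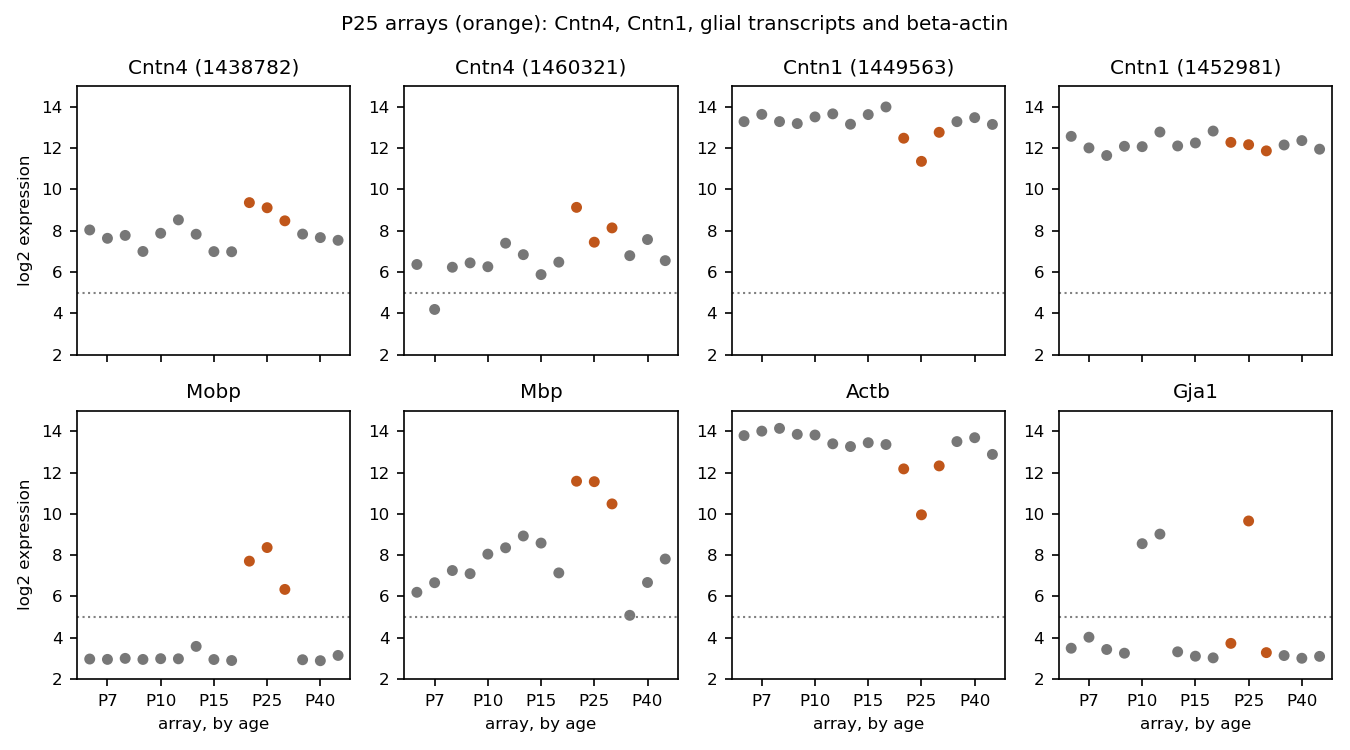
Log2 expression (vertical axis) on each of the 15 arrays, ordered by age (horizontal axis), of both tested probe sets of Cntn4 and of Cntn1 and of Mobp, Mbp, Actb and Gja1; the 3 arrays of P25 are orange and the dotted line is the signal limit of 5. On the P25 arrays Cntn4, Mobp and Mbp are high, Cntn1 probe set 1449563_at and Actb are low, and Gja1 is high on replicate 2 only.

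Cntn5, a contactin known from the auditory pathway and from sensory synapses, fell toward the signal limit. Probe set 1458271_at, its only one, read 8.94, 8.55 and 7.27 at P7, 8.68, 7.72 and 8.21 at P10, and 7.78, 5.96 and 7.81 at P15. It read 7.63, 7.72 and 5.70 at P25 and 4.50, 6.32 and 6.18 at P40. All arrays of P40 lay below all arrays of P7 and P10, and P15 and P25 each held a single low array, replicates 2 and 3. P40 minus P7 was -2.59 (SE 0.67), a 6.01-fold fall with a limma adjusted p of 0.0058. No step between neighbouring ages was called, the 2 largest being -1.02 from P10 to P15, or -0.42 without P15 replicates 2 and 3, and -1.35 from P25 to P40. The SD within an age ran from 0.48 to 1.14, so the course between the first and last age was not resolved.

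Cntn6, a contactin known from cerebellar and cortical neurons and a partner of the adhesion molecule CHL1, fell with less spread. Probe set 1422649_at, its only one, read 11.29, 10.70 and 10.75 at P7, 10.50, 11.00 and 11.00 at P10, and 10.74, 9.46 and 9.76 at P15. It read 10.11, 10.04 and 9.86 at P25 and 9.07, 9.55 and 9.46 at P40. The P40 arrays lay below all arrays of P7, P10 and P25, and the P7 and P10 arrays overlapped. P40 minus P7 was -1.56 (SE 0.30), a 2.94-fold fall with a limma adjusted p of 0.00078, and it ran from -1.66 to -1.37 with each array left out in turn. The step from P10 to P15 was -0.85, with an adjusted p of 0.077. Without P15 replicates 2 and 3 that step was -0.09, as P15 replicate 1 lay within the range of P10.

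Cntn3, Cntn6 and Cntn4 lie on chromosome 6, and by RefSeq's gene order Chl1 is the single protein-coding gene between Cntn3 and Cntn6, with none between Cntn6 and Cntn4. Chl1, named here after its values were seen, read 13.60 ± 0.57 (SD, n = 3) at P7 and 11.46 ± 0.38 at P40, a fall of 4.40-fold with a limma adjusted p of 0.00054. So along this stretch Chl1 and Cntn6 fell and Cntn3 and Cntn4 were not called. The 95% interval of P40 minus P7 for Cntn4 by 1438782_at ran from -0.94 to 0.67, and its other probe set read higher at P40, as given above. Cntnap2 is also on chromosome 6, 414 protein-coding genes away from Cntn3. The other members are spread over chromosomes 1, 8, 9, 11 and 15.

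Cntnap4, which encodes Caspr4, rose between P10 and P15. Its probe set, 1419044_at, read 9.73, 9.43 and 8.32 at P7 and 8.37, 9.01 and 9.70 at P10. It read 10.30, 10.90 and 11.07 at P15, 10.24, 10.30 and 10.23 at P25, and 10.87, 10.98 and 10.71 at P40. All 9 arrays from P15 onward lay above all 6 earlier ones, and the P7 and P10 arrays spanned the same range.

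P15 exceeded P10 by 1.73 on the log2 scale (SE 0.37), a 3.31-fold rise with a limma adjusted p of 0.013, and Cntnap4 was the only member called of 8 in that step, against a background of 11.4%. P40 exceeded P7 by 1.69 (SE 0.37), 3.23-fold, with an adjusted p of 0.0017. The step was 1.27, with an adjusted p of 0.44, without P15 replicates 2 and 3, and leaving out P10 replicate 1, P15 replicate 2 or P15 replicate 3 alone gave adjusted p of 0.052, 0.065 and 0.056. With the number of cells picked as a covariate the step was 0.97, with 0.40; P15 had 23 to 45 cells per animal and P10 had 47 to 72. The difference between P7 and P40 was 1.09, with an adjusted p of 0.071, with the 3′ minus 5′ actin difference as a covariate, and the part of RNA completeness in it was not tested further.

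The order of the ages differed from member to member. For Cntn2 the order from high to low was P15, P40, P25, P10 and P7, and of the neighbours in it P10 and P7 were called. For Cntnap4 it was P40, P15, P25, P7 and P10, and P25 and P7 were called, at 1.10 with a limma adjusted p of 0.026. Without P7 replicate 3 this difference was 0.67, with 0.13. For Cntn4 it was P25, P7, P10, P40 and P15, and P25 and P7 were called. For Cntn1, Cntn3, Cntn5, Cntn6 and Cntnap2 no pair of neighbours in the order was called. Some of those pairs did not overlap all the same: for Cntn1, P40 lay above P25 by 1.10, with an adjusted p of 0.11, and for Cntn6, P10 lay above P25 by 0.83, with 0.053. Between P25 and P40 no member was called, against a background of 0.673%, although 6 of 8 had arrays that did not overlap, as 23% of all genes did.

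Contrasts between ages that are not neighbours add to this order. P15 against P7 called 3 of 8 members, Cntn2 and Cntnap4 upward and Cntn6 downward, against a background of 32%. All 3 calls were lost without P15 replicates 2 and 3: the difference was then 1.30 for Cntn2, 1.14 for Cntnap4 and -0.17 for Cntn6, with limma adjusted p of 0.053, 0.21 and 0.80. That of Cntnap4 was also lost with cells picked as a covariate, at 0.73. P25 against P7 called 5 of 8 against 41.7%, namely Cntn2, Cntn4 and Cntnap4 higher and Cntn1 and Cntn6 lower at P25. With 1 array left out, the call was lost for Cntn4 in 4 fits, for Cntnap4 in 4 and for Cntn6 in 3, with limma adjusted p up to 0.090, 0.13 and 0.092. That of Cntn1 was lost with the mean of its probe sets, at -0.39. P25 against P10 called 3 of 8 against 27.8%, Cntn4 and Cntnap4 higher and Cntn1 lower. Leaving out 1 array ended the calls of Cntn4 and of Cntnap4 in 4 fits each, the smallest differences being 0.78 and 0.90, both without P10 replicate 1. The mean of probe sets ended that of Cntn1, at -0.48. P40 against P10 called 3 of 8 against 32.6%, Cntnap4 higher and Cntn5 and Cntn6 lower. That of Cntn5 was lost without P40 replicate 1, at -1.95 with an adjusted p of 0.057. That of Cntnap4 was lost with the actin difference as a covariate, at 1.23. P40 against P15 called no member, against 5.66%, the lowest limma adjusted p being 0.23, for Cntn5 at -1.52. Without P15 replicates 2 and 3 no member was called either, Cntn6 coming nearest at -1.38 with an adjusted p of 0.063.

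The family has 4 further genes in the mouse, of which Cntnap5a had a probe set of its own on the array. Cntnap5a, a Caspr of the same branch as Cntnap4, read 9.16 ± 0.23 (SD, n = 3) at P7 and 9.72 ± 0.14 at P40. Its highest arrays were those of P25, at 10.42, 10.51 and 9.84. Any age was called for it, with a limma adjusted p of 0.021, but neither P40 minus P7, at 0.56 with 0.070, nor any step was.

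Partners of the paranode and juxtaparanode were described from a list of 19 genes, all tested. Of these 10 rose between P7 and P40, 1 fell and 8 were not called, so 57.9% were called against 45.2% of all genes, of which 27.5% rose. The median was 0.72 against 0.18. This list and the partner lists below were chosen with earlier results of these data known. Their shares called and their medians describe the lists and do not test whether partners change more often than other genes. The rises in this first list included the Kv1 channel subunits that Caspr2 and contactin 2 hold in place. Kcna2 went from 9.44 ± 0.39 (SD, n = 3) to 13.45 ± 0.15, a rise of 4.01 on the log2 scale with a limma adjusted p of 3.2e-08, and Kcna1 from 8.59 ± 0.71 to 13.88 ± 0.57. The single fall was Kcna4, a Kv1 subunit of thin axons, from 7.27 ± 1.49 to 4.62 ± 0.42, with an adjusted p of 0.0026.

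These channels were called at several steps, while Cntnap2 was called at none. Kcna1 was called from P7 to P10, at 3.28 on the log2 scale, the step in which Cntn2 was called at 1.06, and from P15 to P25, at 1.17 with a limma adjusted p of 0.041. Kcna2 was called from P7 to P10, at 1.94, and from P10 to P15, at 1.28. The P15 to P25 call of Kcna1 held in 7 of 15 fits that left out 1 array and in 6 of 14 other settings. With the mean of probe sets that step of Kcna1 was 0.43, with a limma adjusted p of 0.46. The P10 to P15 step of Kcna2 was then 0.40, with 0.12. Without P15 replicates 2 and 3 the later step of each was no longer called, at 1.01 for Kcna1 and 1.41 for Kcna2, with adjusted p of 0.43 and 0.19. The scaffold gene Epb41l3, which encodes the protein 4.1B that anchors Casprs to the axonal cytoskeleton, rose by 0.72 on the log2 scale, with an adjusted p of 0.036 in limma. Nfasc, which encodes neurofascin, forms of which lie at the paranode and the node, rose by 0.75, with 0.031. With equal array medians neither was called, at 0.50 and 0.53. The call of Epb41l3 held in 10 of 15 fits that left out 1 array and in 8 of 14 other settings. For Nfasc it held in 11 of 15 and in 9 of 14. These 2 genes were named after their values were seen.

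Genes of the node of Ranvier and axon initial segment, the excitable sites beside the paranode, moved in both directions. Of the 15 genes in this list 12 could be read from a probe set of their own, and all of these were tested. Among them 6 rose and 5 fell, so 91.7% were called, against 45.2% of all genes, 27.5% higher and 17.6% lower. This list, too, was chosen with earlier results of these data known, so the share describes it and tests nothing. The median was 0.28. Scn2b, a sodium channel beta subunit that binds contactin 1, rose from 8.49 ± 0.51 (SD, n = 3) to 12.44 ± 0.13. Scn8a, the sodium channel of mature nodes, rose from 10.70 ± 0.16 to 12.70 ± 0.08. Scn2a, the sodium channel of immature axons, fell from 13.16 ± 0.07 to 9.44 ± 0.55, and Fgf13, a sodium channel modulator, from 12.34 ± 0.42 to 11.05 ± 0.20. The limma adjusted p ran from 4.9e-08 for Scn2b to 0.0015 for Fgf13.

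Extracellular ligands and co-receptors of contactins made up a list of 15 genes, of which 13 were tested. Among these 2 rose, 6 fell and 5 were not called. So 61.5% were called, against 45.2% of all genes and 17.6% called lower, and the median was -0.67 against 0.18. Ncan, which encodes the proteoglycan neurocan, went from 9.82 ± 0.46 (SD, n = 3) to 6.69 ± 0.22, and L1cam, an adhesion molecule that binds contactins 1 and 2, from 12.32 ± 0.06 to 10.84 ± 0.50. The rises were App, the amyloid precursor gene, at 0.56 on the log2 scale with a limma adjusted p of 0.011, and its relative Aplp2, at 0.85 with 0.015. With equal array medians neither was called, at 0.35 and 0.64. Ptprz1 and Ptprg encode the receptor phosphatases that bind contactin 1 and contactins 3 to 6. Named after their values were seen, Ptprz1 went from 9.25 ± 1.74 to 4.97 ± 0.48, and Ptprg fell 1.59-fold with an adjusted p of 0.032, a call lost without P40 replicate 1, at 0.16.

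Cytoplasmic partners, mainly the PDZ scaffolds that bind the tails of Casprs, were mixed. Of 13 genes 12 were tested, 2 rose and 5 fell, 58.3% being called against 45.2% of all genes, with a median of 0.23 against 0.18. Mpdz, a scaffold with many PDZ domains, rose from 6.79 ± 0.60 (SD, n = 3) to 9.92 ± 0.34, and Lin7a from 9.96 ± 0.74 to 11.13 ± 0.43. Cask, the scaffold kinase that binds Casprs and neurexins, fell from 10.52 ± 0.18 to 7.81 ± 0.21, and Lin7c, a paralog of Lin7a, from 9.18 ± 1.22 to 5.60 ± 0.53. The limma adjusted p was 6.9e-06 for Mpdz, 0.0059 for Lin7a, 3.6e-05 for Cask and 0.0014 for Lin7c. With the mean of probe sets Lin7a was not called, at 0.25, and the difference of Mpdz was 0.65 on the log2 scale in place of 3.13 and that of Cask -1.20 in place of -2.70.

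**Figure D4:**
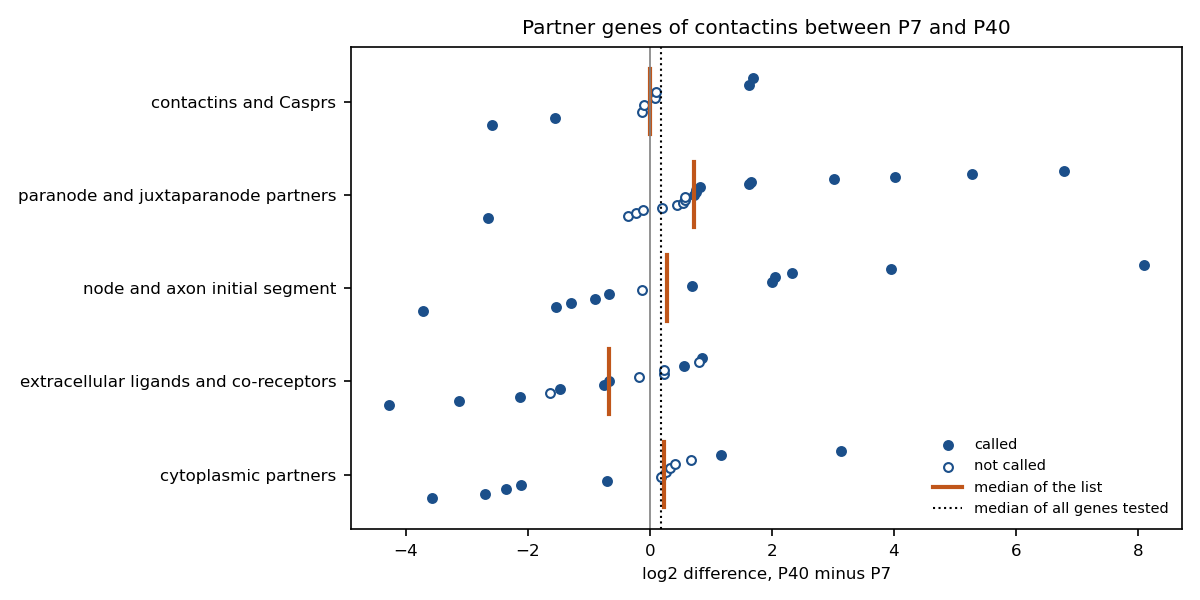
Log2 difference of P40 minus P7 (horizontal axis) for each tested gene of the contactin and Caspr members and of 4 partner lists (rows); filled symbols have an adjusted p under 0.05 in limma, short bars mark the median of a list and the dotted line the median of all genes tested, 0.18. The paranode and juxtaparanode list has a median of 0.72 and the ligand list a median of -0.67. The lists were chosen with earlier results of these data known.

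For each member that differed between ages, the tested genes with the most similar course were found by Pearson's correlation over the 15 arrays among 9655 genes, as a description, since all share the same arrays and the same ages. Cntn2 was closest to Kank2, at 0.94, and Chst11, at 0.93, which both rose, by 4.49 and 2.28 on the log2 scale between P7 and P40. Cntnap4 was closest to Snhg4, at 0.97, and to Atp5b, a subunit gene of the mitochondrial ATP synthase, at 0.96. It had 1096 genes above 0.8, so its course was common on these arrays. Cntn6 was closest to Nr2f1, a nuclear receptor gene, at 0.94, and Cyp4x1, at 0.92, with 226 genes above 0.8.

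Cntn5 was closest to Erbin, at 0.94, and Noct, at 0.92, with 91 genes above 0.8. The course of Cntn4 was rare: only 4 genes exceeded 0.8, led by Ssb, at 0.92, and Derl1, at 0.82, with Mobp next at 0.81. Cntn1 had 21 genes above 0.8, led by Prkaa2 and Appbp2, both at 0.91, with Actb next at 0.89. Cntn2 had 420.

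The values between P7 and P40 are relative to arrays on which the median of all genes tested rose by 0.18. When each array was shifted to equal medians, the 4 calls and their directions stayed, at 1.41 for Cntn2, 1.48 for Cntnap4, -2.81 for Cntn5 and -1.77 for Cntn6. Over all genes, 61.0% of the calls between P7 and P40 were rises in the values as deposited, 51.5% after quantile normalization and 49.4% after the shift to equal medians.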

How the data were processed

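RNA of hand-picked G42 neurons was measured on 15 Affymetrix arrays. The labels give 3 biological replicates at each of 5 ages, taken here as separate animals. The deposited values are log2 expression values, 1 per probe set and array, and GCRMA is the method named in the submitters' processing notes; its version is not given in the sources used here. Values were used as deposited. Array medians ran from 3.21 to 3.46, and 33.8 to 35.0% of probe sets exceeded 5. The number of arrays limits the precision.

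Probe sets were named from GEO's platform annotation. Of 45101, 34945 had 1 gene, 932 several, 9160 none and 64 were controls; only the first were used. Where a gene had several of these, the one brightest on average across the 15 arrays stood for it, and 9663 of 18193 genes were tested. All probe sets of the members were also tested singly, in a fit over 15381 probe sets.

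Tests used limma 3.58.1 in R 4.3.3: each age had its own mean, and variances were moderated by eBayes with a trend, 10 residual degrees of freedom and a median prior of 4.85. P-values are two-sided and were adjusted by Benjamini-Hochberg within each contrast over all features. Contrasts were P40 minus P7 and the neighbouring steps; those between other ages serve to order the levels. SE is moderated, ± is the SD, intervals are 95%, and folds are given where both means exceed 5. The fits were tested on simulated data.

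All members were named, and in each list the 2 called genes with the smallest adjusted p of P40 minus P7 in each direction, the 2 most similar genes of each member called by the F test, and Pvalb and Slc17a7. Others were named after their values were seen. The members and lists were chosen with earlier results of these data known. Of 66 listed symbols 59 were on the array. Same-numbered replicates did not deviate together more than others. Over 30 such pairs the correlation of deviations from the age means ran from -0.405 to 0.275, with a median of -0.066. Over 60 pairs with different numbers it ran from -0.351 to 0.517, with a median of 0.023. The main fits therefore used no pairing, though this check cannot exclude one. Promoters and gene order are from RefSeq, GRCm38.p6. Figures used Python 3.11.15, pandas 2.3.3 and matplotlib 3.10.9.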

Additional observations from a re-analysis of the deposited data

How the results depend on the processing

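Each result was recomputed under up to 29 other settings, 15 of which left out 1 array; leaving out P15 replicates 2 and 3 together with P25 replicate 2 was chosen after seeing the data. Of the gene differences 2888 of 3093 comparisons kept their side of the threshold, and their direction where either fit was called. A change of sign between differences called in neither fit was not counted. Of the any-age tests, which have no direction, 207 of 223 kept their side of the threshold. Of the counts 283 of 374 stayed within 1.5 times, and no called direction reversed.

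The number of members called between P7 and P40 was 4 with each array left out and 3 or 4 otherwise. With the mean of probe sets Cntn2 fell under the filter and was not tested in any contrast, which left 7 members. Among all genes the number called between P7 and P40 was 8295 without the filter. It was 2652 when the beta-actin 3′ to 5′ gap was a covariate, and 33.4% and 51.6% of these calls were rises. For P10 minus P7 no member (0) was called with equal array medians, no filter, values under 5 raised to 5, the mean of probe sets, the actin gap as covariate, without P15 replicates 2 and 3, without these and P25 replicate 2, or with only the ages of the contrast; in the last 2 settings 215 and 43 of all genes were called. For P15 minus P10 the members called were 2 with quantile normalization and with equal medians, 4 with array weights and 0 with the actin gap or the number of cells picked as covariate, without P15 replicates 2 and 3, without these and P25 replicate 2, or with only the ages of the contrast. In that step all genes called were 530 without the filter, 2955 with array weights, 33 with cells picked, 150 with the actin gap, 32 without P15 replicates 2 and 3, 21 without these and P25 replicate 2 and 53 with only the ages of the contrast. For P25 minus P15 the members called were 1 with the mean of probe sets or only the ages of the contrast, and 0 without P15 replicates 2 and 3, with or without P25 replicate 2; all genes were 1622 with array weights, 310 with the actin gap, 64 without P15 replicates 2 and 3 and 34 without these and P25 replicate 2. For P40 minus P25 the members called were 2 without the filter and 4 with array weights; all genes were 40 with equal medians, 2998 without the filter, 8 with the mean of probe sets, 1001 with array weights, 12 with the actin gap, 34 without P15 replicates 2 and 3, 5 without these and P25 replicate 2 and 9 with only the ages of the contrast. The cause of these shifts was not tested.

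With each array left out in turn, the members called ran from 0 to 1 for P10 minus P7, 0 to 3 for P15 minus P10, 0 to 3 for P25 minus P15 and 0 to 1 for P40 minus P25. All genes called ran from 191 to 385, 149 to 1905, 158 to 532 and 5 to 138 in these steps. The any-age call of Cntn4 was lost without P25 replicate 1 or 2 (adjusted p 0.085 and 0.069, limma), without P15 replicates 2 and 3 (0.057) and without these and P25 replicate 2 (0.20). That of Cntn5 was lost without P7 replicate 2 or P40 replicate 1 (0.051 and 0.095), with no filter (0.052) and with cells picked (0.063), and those of Cntn5 and Cntn6 with the actin gap as covariate (0.15 and 0.063). That of Cntn1 was lost with the mean of probe sets (0.18). Cntn3 gained one with the mean of probe sets (0.023), with array weights (0.0030) and without P15 replicate 1 (0.0081) or P25 replicate 3 (0.025). With the mean of probe sets the P40 minus P7 differences of Kcna2, Kcna4, Scn2a, Scn2b, Fgf13, L1cam and Lin7c were 1.92, -1.35, -2.11, 2.55, -0.68, -0.77 and -1.99, all still called, and Kcna4 lost its call with the actin gap as covariate (0.10).

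With the replicate number as a block, Cntn2 lost its P10 minus P7 call (adjusted p 0.084, limma), which left 0 members, Cntn3 gained an any-age call (0.048), and all genes called were 727 for P15 minus P10 and 16 for P40 minus P25. The labels give no pairing, and same-numbered arrays did not deviate together.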
